A study of Mus musculus with 2040 samples.

Results

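The 35 genes described here belong to the interferon response and to antigen presentation by MHC class I. They were chosen by name, and all 35 were found among the 32245 gene columns of a table of single brain cells. By role, 8 are sensors and signalling genes, 19 are antiviral effectors and 8 act in antigen presentation. Each cell was a single SYFP2-positive cell sorted from the brain of a C57Bl/6J mouse that had received 1 adeno-associated virus (AAV) vector, in which a named enhancer or promoter drives the fluorescent reporter. The table holds 2040 cells from 47 mice and 30 vectors: primary visual cortex (VISp) in 41 mice and 27 vectors, cerebellar cortex (CBX) in 2 mice and the single vector eHGT_375m, and midbrain and hindbrain (MB/HB) in 4 mice, 2 with MGT_E160m and 2 with eHGT_381h. All mice carried an AAV, the labels name no untreated mouse, and they do not state age, dose or route. Each vector was used in a single tissue, so tissue and vector cannot be told apart, and the sorted cells are only those in which the vector's enhancer or promoter was active.

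Interferons are secreted when a cell senses foreign nucleic acid. They act through receptors and JAK kinases on transcription factors, STAT2 and IRF9 among them, which bind interferon-stimulated response elements and switch on a large set of antiviral genes. The same signal raises the MHC class I heavy chains, their light chain B2m, the peptide transporter Tap1 and the immunoproteasome subunits, so that the cell shows more of its peptides to T cells. In the healthy brain glia and neurons are known to keep most of these genes low.

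The promoters of 5 members are printed because they belong to genes whose levels the results turn on: Ifit3, Isg15 and Cxcl10 are among the antiviral effectors called higher in CBX, B2m was called higher in both CBX and MB/HB, and Xaf1 was high in oligodendrocyte-like cells. Each run is the 250 bases before the gene's start in RefSeq (build GRCm38.p6, the same assembly as mm10), read 5′ to 3′ on the gene's strand. Capitals mark matches on either strand to the core of the interferon-stimulated response element, that is GAAA, then any 2 bases, then GAAA, whose neighbouring matches may overlap. The gamma-activated site TTCNNNGAA was searched in the same way and does not occur in these 5.
Ifit3, chr19:34583279-34583528, plus strand: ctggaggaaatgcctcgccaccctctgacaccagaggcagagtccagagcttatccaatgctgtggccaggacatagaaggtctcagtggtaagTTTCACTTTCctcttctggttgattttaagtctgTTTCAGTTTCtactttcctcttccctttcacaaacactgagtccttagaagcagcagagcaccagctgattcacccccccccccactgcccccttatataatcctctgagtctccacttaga
Isg15, chr4:156200819-156201068, minus strand: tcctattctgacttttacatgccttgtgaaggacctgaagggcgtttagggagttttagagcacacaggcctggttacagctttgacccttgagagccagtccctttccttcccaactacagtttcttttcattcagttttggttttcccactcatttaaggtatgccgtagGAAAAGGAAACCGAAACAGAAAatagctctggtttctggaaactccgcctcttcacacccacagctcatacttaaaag
Cxcl10, chr5:92348890-92349139, minus strand: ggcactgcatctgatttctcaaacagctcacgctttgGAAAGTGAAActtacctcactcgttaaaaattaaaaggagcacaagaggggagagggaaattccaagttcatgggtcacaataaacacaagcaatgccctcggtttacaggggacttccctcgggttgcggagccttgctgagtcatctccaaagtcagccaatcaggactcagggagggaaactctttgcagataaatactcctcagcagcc
B2m, chr2:122147437-122147686, plus strand: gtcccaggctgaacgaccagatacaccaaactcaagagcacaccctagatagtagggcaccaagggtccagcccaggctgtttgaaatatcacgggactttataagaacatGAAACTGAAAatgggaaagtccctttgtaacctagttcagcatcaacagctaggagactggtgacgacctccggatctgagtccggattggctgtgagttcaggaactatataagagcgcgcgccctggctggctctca
Xaf1, chr11:72301379-72301628, plus strand: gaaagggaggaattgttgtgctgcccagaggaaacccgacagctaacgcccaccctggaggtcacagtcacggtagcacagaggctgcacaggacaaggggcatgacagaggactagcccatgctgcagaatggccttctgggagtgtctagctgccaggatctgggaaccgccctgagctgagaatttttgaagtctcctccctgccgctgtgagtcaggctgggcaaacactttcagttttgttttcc
This element occurred at least once in 12 of the 28 members that the promoter table holds (42.9%), and in 3.46% of all 27025 genes of the table, a gene counting once over all its starts. Antiviral effectors had it in 9 of 14 genes, antigen presentation genes in 2 of 8 and sensors and signalling genes in 1 of 6. Counted from the gene's start, Ifit3 had 2 matches, the first at -156, Isg15 had 3 overlapping matches from -78 on, B2m had 1 at -139 and Cxcl10 1 at -213. TTCNNNGAA was found in 5 of the 28 (17.9%), against 8.13% of all genes of the table. Xaf1 held neither run of letters in this window, which says nothing of the factors that act on it. Ifi27, Usp18, Rtp4, Nlrc5, Parp14, Parp9 and Zbp1 had no entry in the table.

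The cells had 57873 to 1455022 reads each, with a median of 434101. Values are in CPM, reads per 1000000 reads of the cell, averaged over the cells of a class in each mouse with at least 10 such cells; the mouse is the replicate. Cells were grouped without the members into astrocyte-like (970 cells), oligodendrocyte-like (945), neuron-like (99) and unnamed (26) clusters. Astrocyte-like cells of VISp lay mostly in cluster 0 (84.2%), those of CBX in cluster 6 (97.5%) and those of MB/HB in cluster 3 (93.3%), so these comparisons are between clusters as well as tissues. Of 12 astrocyte markers, 11 were detected in most VISp, 12 in most CBX and 11 in most MB/HB astrocyte-like cells, and all 12 oligodendrocyte markers in most oligodendrocyte-like cells. Cells with 3 or more markers of microglia, macrophages, lymphocytes, endothelium or pericytes at 10 CPM or more made up 2.84% of VISp, 4.94% of CBX and 8.0% of MB/HB astrocyte-like cells.

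In VISp most members were low or rare in astrocyte-like cells (739 cells, 19 mice, 12 vectors). Over all cells B2m, Ifi27, H2-K1, H2-D1, Lgals3bp and Xaf1 had the highest mean CPM. B2m, the light chain of every class I molecule, ranged over the VISp mice from 53.7 to 142.3 CPM with a median of 83.3, and reached 10 CPM in 45.2% of the cells. H2-K1, a classical class I heavy chain, ran from 72.6 to 234.5 CPM with a median of 113.98. Every VISp mouse therefore had both in its astrocyte-like cells. At the other end, Zbp1, a sensor of Z-form nucleic acid, and Oas1a, which makes the messenger that activates RNase L, reached 10 CPM in 0 of the 739 cells. For such a count of 0 the 3-count limit allows a share of up to 0.406%. Cxcl10, a chemokine that draws T cells, reached it in 2 cells, Isg15, a ubiquitin-like modifier, in 5, and Irf7, the amplifier of type I interferon production, in 7.

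Of the 8 antigen presentation genes, 5 were called higher in MB/HB than in VISp astrocyte-like cells, where 11.6% of all genes tested were called. For 3 of the 5 the groups did not overlap. The share of all genes without overlap was not counted, so the lack of overlap is a description of these genes. B2m averaged 478.99 and 396.5 CPM in the 2 eHGT_381h mice (MouseID-615516 and MouseID-651222) and 321.9 and 403.4 CPM in the 2 MGT_E160m mice (MouseID-651228 and MouseID-651229). All 4 lay above the highest of the 19 VISp mice. The difference was 2.19 ± 0.23 (SE) on the log2(mean CPM + 1) scale (limma, adjusted p = 2.369e-08). H2-D1, the second classical heavy chain, averaged 268.5, 311.1, 145.2 and 129.5 CPM in the same order, against 20.5 to 111.6 (median 34.6) in VISp. Here too the groups did not overlap, with a difference of 2.44 ± 0.31 (adjusted p = 1.01e-06). H2-K1 averaged 277.2, 316.6, 304.9 and 259.4 CPM, all above the VISp range, a difference of 1.24 ± 0.24 (adjusted p = 0.0003408). B2m reached 10 CPM in 92.7%, 59.4%, 80.5% and 94.4% of the cells of the 4 mice, against 45.2% of the VISp cells. All 3 calls held under the 37 alternatives run for this comparison.

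In all, 6 of the 35 members passed the test in MB/HB against VISp and all 6 were higher, while 11.6% of the 2336 panel genes tested were called, 6.98% higher and 4.58% lower. The members' median difference was 1.0, against 0.02 over all genes tested. Beside B2m, H2-D1 and H2-K1, the antigen presentation genes called were H2-T23, a non-classical class I heavy chain (27.96, 39.01, 1.46 and 12.4 CPM, 2.61 ± 0.75, adjusted p = 0.01841), and Psmb8, an immunoproteasome subunit (15.9, 24.6, 15.2 and 7.63 CPM, 2.93 ± 0.76, adjusted p = 0.008702). Both overlapped the VISp mice, which reached 7.13 CPM for H2-T23 and 9.08 CPM for Psmb8. Single cells carried much of these means: 1 cell held 80.4%, 100%, 53.8% and 100% of the Psmb8 of the 4 mice in the same order, and 1 cell 90.4% of the H2-T23 of MouseID-651222 and 86.7% of that of MouseID-651229. The one antiviral effector called was Ifi27, a mitochondrial protein (184.3, 201.5, 221.97 and 137.9 CPM against 50.7 to 246.3 in VISp, median 101.98, 0.83 ± 0.27, adjusted p = 0.03636). None of the 8 sensors and signalling genes was called by limma, and 1 had an unadjusted p under 0.05, as did 15 of the 35 members and 23.6% of all genes. Tap1 and Tapbp, which load the peptides, differed by -0.53 ± 0.83 and -0.09 ± 0.39 and were not called.

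Markers of other cell types moved with part of this result. The 9 endothelial markers summed to 7.67 to 1973 CPM over the 4 MB/HB mice (median 653.6), against 1.18 to 26.6 in VISp and 14.4 to 21.6 in CBX. The 8 pericyte and muscle markers summed to 35.4 to 1399 CPM in MB/HB and 31.6 to 98.7 in VISp, and the 7 macrophage markers to 12.4 to 24.3 against 0.167 to 15.4, with Pf4, Lyve1 and Ms4a7 at 0. The 12 microglial markers ran from 72.7 to 209.6 CPM in MB/HB, within the VISp range of 68.2 to 401.9, and Aif1 and Trem2 were at 0. The 12 oligodendrocyte markers summed to 838.6 to 6262 CPM in MB/HB (median 1296) against 171.1 to 1311 in VISp (median 393.2), and the 12 neuron markers to 15.7 to 1031 against 21.7 to 534.8. Without the cells that held 3 or more markers of other types, 3 members were called, B2m (2.0), H2-D1 (1.99) and H2-K1 (1.30), and the same 3 were called when the class was taken from each cell's own markers. That is 9.09% of the 33 members tested under each, at or below the 12.3% and 11.1% of all genes called there, so the count of members then stood no higher than the background. H2-T23, Psmb8 and Ifi27 were lost under both, and no other part of these markers in the result was tested. Leaving out MouseID-615516 or MouseID-651222 also ended the calls of H2-T23 and Ifi27, and leaving out MouseID-651228 that of Ifi27.

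Of 93 further interferon and antigen presentation genes, 11 passed in MB/HB against VISp, 6 higher and 5 lower, with a median difference of 0.20. The share called, 11.8%, was that of all genes tested (11.6%), so the genes named next are values of single genes. Sp100, a nuclear body protein (3.38 ± 0.52), Ifi35 (3.20 ± 0.69), Samd9l (3.06 ± 0.39) and Trim30a (2.41 ± 0.61) were higher. Myd88, the adaptor of Toll-like receptors (-2.54 ± 0.76), and Gbp7, a guanylate-binding protein (-2.30 ± 0.67), were lower. Both receptor chains for interferon gamma were lower as well, Ifngr1 by -1.48 ± 0.24 and Ifngr2 by -1.56 ± 0.42. Trim30a, Myd88 and Gbp7 lost their call without MouseID-651228, Myd88 also without MouseID-615516, and Myd88 and Gbp7 also without MouseID-651222. Sp100 lost it when the class was taken from each cell's own markers.

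**Figure D1:**
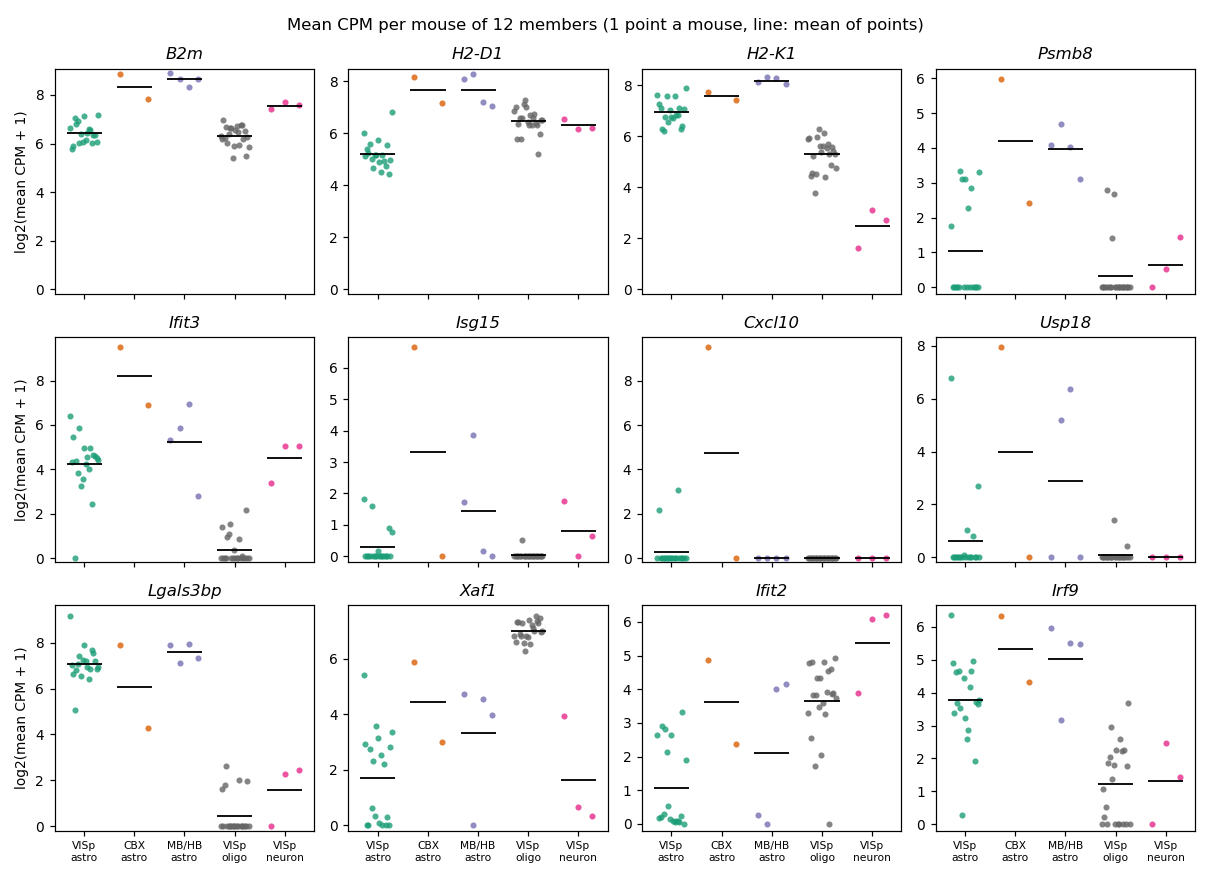
Mean CPM of 12 members in each mouse with at least 10 cells of the class, on a log2(CPM + 1) axis; each point is 1 mouse and each line the mean of the points. The 4 MB/HB mice lie above all 19 VISp astrocyte-like mice for B2m, H2-D1 and H2-K1, and MouseID-614198 is the single high CBX point for Isg15, Cxcl10 and Usp18.

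The CBX astrocyte-like cells (81 cells) differed from VISp in more members, and most of that difference lay in 1 of the 2 mice. Ifit3, an antiviral effector that binds viral RNA with Ifit1, averaged 722.5 CPM in MouseID-614198 and 117.1 CPM in MouseID-651221, both above the 19 VISp mice (0 to 82.8, median 20.2). The difference was 3.96 ± 0.96 (adjusted p = 0.005236). In both mice most cells held it, 72.1% and 63.2% at 10 CPM or more, against 15.2% of VISp cells. B2m averaged 457.6 and 226.8 CPM (1.89 ± 0.31, adjusted p = 6.006e-05) and H2-D1 280.4 and 142.4 CPM (2.44 ± 0.42, adjusted p = 0.0001114), again with both mice above every VISp mouse. For these 3 members both cerebellar mice were high, and the share of all genes without such overlap was not counted.

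Cxcl10 averaged 731.4 CPM in MouseID-614198 and 0 in MouseID-651221, with a fitted difference of 4.48 ± 1.07 (adjusted p = 0.004501). A single cell held 98.6% of the Cxcl10 of MouseID-614198. Isg15 averaged 100.02 and 0 CPM (3.05 ± 0.89, adjusted p = 0.02228). Oas1a averaged 16.2 and 0 CPM (2.04 ± 0.64) and Zbp1 8.90 and 0 CPM, and both were called. They passed the filter of 1 CPM in at least 2 mice only through MouseID-614198 and 1 MB/HB mouse each. Those were MouseID-651222 for Oas1a (13.7 CPM) and MouseID-615516 for Zbp1 (3.87 CPM). The highest VISp mouse was at 0.0746 and 0.0271 CPM, so these calls give no support for a difference. Psmb8 averaged 62.1 and 4.37 CPM (3.16 ± 1.03, adjusted p = 0.04584) and Psmb9, its immunoproteasome partner, 22.4 and 1.76 CPM (2.52 ± 0.74, adjusted p = 0.02354). The cell with most of the Cxcl10 also held 99.6% of the Oas1a and 100% of the Zbp1 of MouseID-614198. It held 89.9% of the Psmb9 and 67.6% of the Psmb8 as well, while the highest cell for Isg15 held 35.8%. For all 6 genes the second mouse lay inside the VISp range, and without MouseID-614198 the calls of Cxcl10, Isg15, Psmb8 and Psmb9 were lost while Oas1a and Zbp1 were too low to be tested. Psmb8 was close to the threshold and lost its call under 20 of 37 alternatives, most of them the removal of a single mouse of another vector.

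Together 9 of the 35 members were called in CBX against VISp and all 9 were higher, with 10.2% of the 2336 panel genes called, 5.57% higher and 4.67% lower. The 9 include Oas1a and Zbp1, which entered the test only through mice in which they were high. The members' median difference was 1.92 and that of all genes -0.07. By role these were 5 of 19 antiviral effectors, 4 of 8 antigen presentation genes and 0 of 8 sensors and signalling genes by limma, of which 1 had an unadjusted p under 0.05, as did 18 of the 35 members and 21.1% of all genes. Without MouseID-614198, 2 members were called: H2-D1 was higher by 1.96 (adjusted p = 0.04938) and Lgals3bp, a secreted scavenger receptor protein, was lower. These are 6.06% of the 33 members tested, near the 4.63% of all genes called under that setting. B2m then differed by 1.39 (adjusted p = 0.05178), and Isg15 and Cxcl10 turned to -0.28. Without MouseID-651221, 15 members were called, all higher, with 5.39% of all genes. The mean over cells of log2(CPM + 1), in which a single very high cell weighs less, called 17 members, of which 7 were among the 9 (Oas1a and Zbp1 were not), but it also called 24.2% of all genes, and a pseudocount of 0.1 CPM called 5 members and 9.59% of all genes. H2-K1 differed by 0.62 ± 0.32 and was not called.

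In CBX the 8 lymphocyte markers summed to 0.0397 and 0.223 CPM, with 7 of them at 0, the 7 macrophage markers to 0.417 and 20.2 CPM, with 4 at 0, and the 9 endothelial markers stayed within the VISp range. The 12 microglial markers summed to 142.4 and 167.6 CPM, within the VISp range, with Tmem119, Siglech and Trem2 at 0. The 12 oligodendrocyte markers were higher in CBX (1935 and 2224 CPM) than in VISp (171.1 to 1311), and their part in the result was not tested. Without the cells that held 3 or more markers of microglia, macrophages, lymphocytes, endothelium or pericytes the count of members called in CBX against VISp was 7. The share of all genes called under that setting is not given here, so this count is not read against a background.

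The wider list had 12 of 93 genes called in CBX against VISp, 11 higher and 1 lower, with a median difference of 0.38, and 12.9% called was near the 10.2% of all genes. The highest were Ifi35 (3.74 ± 0.93), Ifi47, an immunity-related GTPase (3.17 ± 0.73), Cd274, the inhibitory ligand PD-L1 (2.67 ± 0.71), Oasl1 (2.54 ± 0.60), Iigp1 (2.29 ± 0.66) and Oas1g (2.13 ± 0.22). Tlr3, the endosomal sensor of double-stranded RNA, was lower by -1.98 ± 0.29. Ifi35, Cd274 and Iigp1 were no longer called without MouseID-614198, and Cd274 also without MouseID-651221. Oas1g and Oas1a, Ifit3 and Ifit3b, and the class I heavy chains are close copies of each other, and how reads shared between copies were counted is not given in the sources used here.

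Set against each other, CBX and MB/HB astrocyte-like cells differed in 1 member, Cxcl10, higher in CBX by 4.76 ± 1.25 (adjusted p = 0.01441), with 7.79% of the panel genes called, 3.12% higher and 4.67% lower. Cxcl10 was listed at 0 in all 150 MB/HB cells, whose floor of 3 reads over the group is 0.0464 CPM, against a CBX mean of 365.7 CPM. That mean is of 1 mouse at 731.4 CPM, with 98.6% of it in a single cell, and 1 mouse at 0, so no fold between the tissues is given. The call was lost without MouseID-614198 and with a pseudocount of 0.1 CPM. Gbp2, a guanylate-binding protein, was also listed at 0 in MB/HB and averaged 29.1 and 2.83 CPM in CBX, where the fitted difference of 3.42 ± 1.10 missed the threshold (adjusted p = 0.05191). B2m and H2-D1 differed by -0.30 ± 0.37 and 0.01 ± 0.49. Of the wider list 6 of 93 (6.45%) were called, 3 in each direction, again near the share of all genes. Oas1g and Isg20 (2.07 ± 0.25 and 2.07 ± 0.56) and Ifngr2 (2.71 ± 0.65) were higher in CBX, and Sp100 (-3.51 ± 0.81), Tlr3 (-1.95 ± 0.34) and Aim2 (-1.37 ± 0.43) were lower. Ifngr2 lost its call without MouseID-614198, Tlr3 without MouseID-651221, Sp100 without either, and Aim2 under 31 of 37 alternatives.

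**Figure D2:**
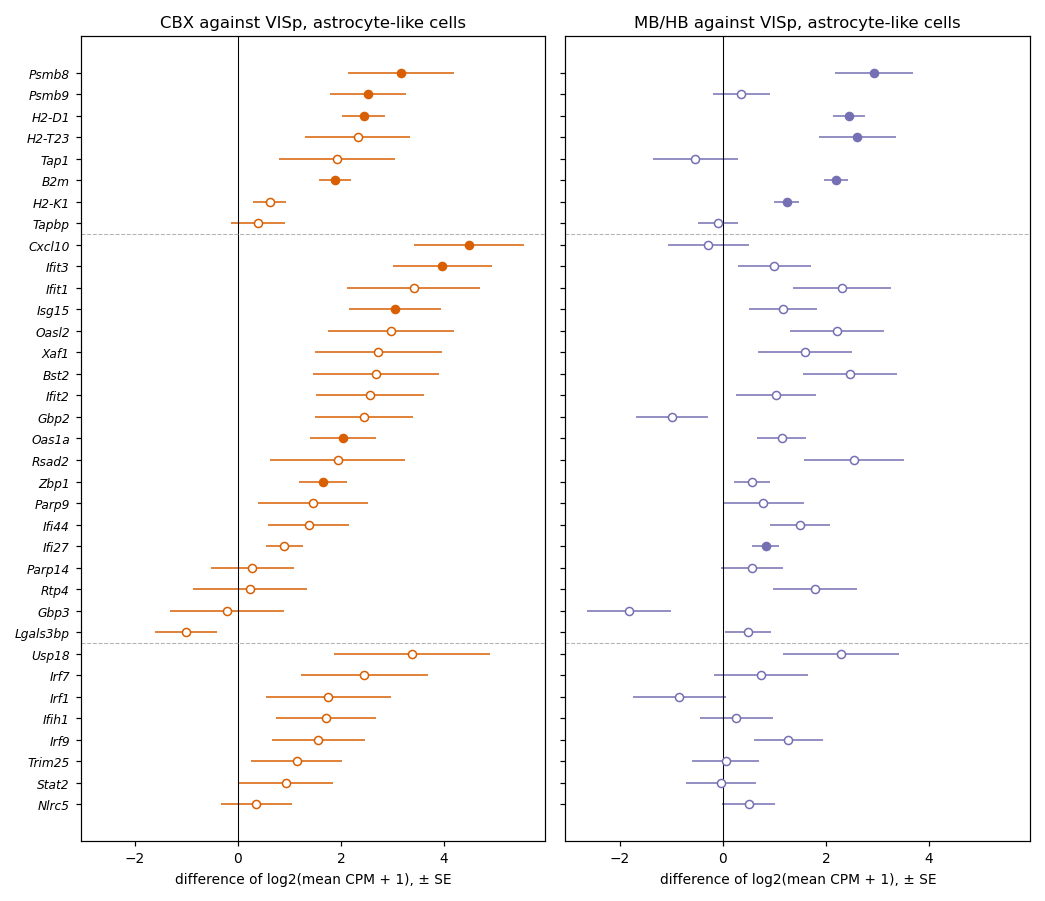
Difference of log2(mean CPM + 1) from VISp for the 35 members in CBX (left) and MB/HB (right) astrocyte-like cells, with bars of 1 SE and filled points for adjusted p under 0.05; dashed lines separate antigen presentation, antiviral effectors and sensors and signalling. In CBX 9 points are filled, 5 of them antiviral effectors, and in MB/HB 6 are filled, 5 of them antigen presentation genes; both panels share the VISp mice.

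To see whether these levels came from few or many cells, the members counted as interferon-induced were scored in each cell. A cell was called responding if it held 3 or more of 15 members (Ifit1, Ifit2, Ifit3, Isg15, Irf7, Oasl2, Oas1a, Rsad2, Usp18, Rtp4, Ifi44, Zbp1, Cxcl10, Bst2 and Xaf1) at 10 CPM or more. Of all 2040 cells 60 did (2.94%, exact 95% interval 2.25 to 3.77). Among astrocyte-like cells there were 10 of 739 in VISp (1.35%, 0.651 to 2.47), 10 of 81 in CBX (12.3%, 6.08 to 21.5) and 5 of 150 in MB/HB (3.33%, 1.09 to 7.61). Oligodendrocyte-like cells of VISp had 10 of 939 (1.06%, 0.512 to 1.95). In an alternative chosen after seeing the data, which left Xaf1, Ifit2 and Ifit3 out of the score, 0 of the 926 oligodendrocyte-like cells of mice with at least 10 such cells responded, which allows a share of up to 0.324%. Of astrocyte-like cells, 7 of 739 in VISp, 7 of 81 in CBX and 4 of 150 in MB/HB responded under it. The intervals cover counting error only and no test was made, since cells of 1 mouse are not independent.

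The responding astrocyte-like cells came mostly from 2 mice. MouseID-614198 (CBX, eHGT_375m) had 9 of 43 cells (20.9%, 10.04 to 36.04) and MouseID-651221, with the same vector and tissue, had 1 of 38 (2.63%, 0.0666 to 13.8). MouseID-556485 (VISp, eHGT_390m) had 8 of 45 (17.8%, 8.002 to 32.05), whereas MouseID-616740, also eHGT_390m, had 0 of 33. Only 2 of the 19 VISp mice had any, the other being GFAP_promoter MouseID-651226 with 2 of 45. Over mice the mean share was 11.8% ± 12.9 (SD, n = 2) in CBX, 3.22% ± 3.04 (SD, n = 4) in MB/HB and 1.17% ± 4.15 (SD, n = 19) in VISp. The 2 mice of eHGT_375m, and the 2 of eHGT_390m, thus differed from each other by more than the tissue means did.

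**Figure D3:**
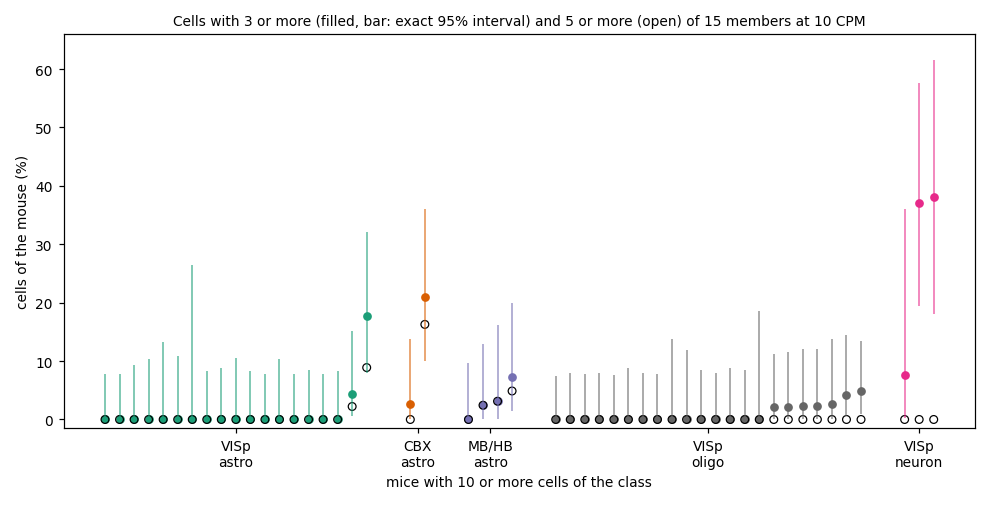
Share of cells in each mouse with 3 or more (filled, with exact 95% intervals) or 5 or more (open) of the 15 members at 10 CPM or more, in percent, by class and tissue. MouseID-614198 at 20.9% and MouseID-556485 at 17.8% stand above the other astrocyte-like mice, and the oligodendrocyte-like mice have no cell with 5 or more.

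Each cell identifier begins with a code, read here as a plate, though what the code stands for was not established. MouseID-614198 shared 2 of these plates with other mice. On the first, 3 of its 13 cells responded and 0 of 38 and 0 of 18 cells of the 2 other mice did. On the second, 6 of its 30 cells did, with 0 of 16, 0 of 26 and 0 of 32 in 3 mice and 1 of 13 in MouseID-615516. Both plates of MouseID-556485 had responding cells, 6 of 29 and 2 of 16. The codes of that mouse had the SM prefix and those of its vector partner the AB prefix. On AB plates alone the mean VISp share was 0.278% (16 mice).

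A stricter cut of 5 or more members separated the cells further. It was met by 18 cells in 8 mice, 11 of them in MouseID-614198 (7 cells) and MouseID-556485 (4 cells). Oligodendrocyte-like cells of VISp had 0 of 939, which allows a share of up to 0.319%. The 18 cells had 274208 to 897550 reads (median 502950). The mean CBX share with 5 or more members was 8.14% with all reads and 8.14% with every cell thinned to 100000 reads. One cell of MouseID-614198 held all 15 members, with Cxcl10 at 31008 CPM, Ifit3 at 11365, Usp18 (the protease that removes Isg15 from proteins) at 6875, Ifit1 at 3362 and Bst2 (tetherin, which holds virions on the cell surface) at 3358. The same cell had 10 of 12 astrocyte markers and 0 endothelial, macrophage or lymphocyte markers at 10 CPM. It also had 2 microglial, 3 oligodendrocyte and 2 neuron markers at that level.

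**Figure D4:**
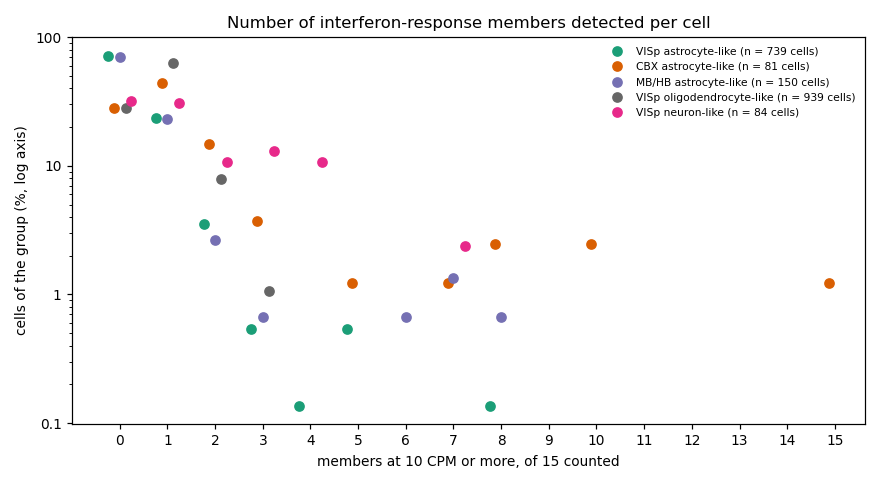
Percent of cells (log axis) by the number of the 15 members at 10 CPM or more, for 4 glial groups and VISp neuron-like cells; points of the groups are set slightly apart. Oligodendrocyte-like cells end at 3 members, whereas 7 CBX cells lie at 5 or more and 1 at 15.

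The 16 cells of astrocyte-like clusters with 5 or more members also held members that the score did not use. H2-T23 reached 10 CPM in 9 of the 16 (56.2%) and in 23 of the 945 cells with 2 or fewer members (2.43%). Irf9 did so in 10 of 16 (62.5%) against 10.2%, H2-D1 in 12 of 16 (75%) against 24.7%, and B2m in 14 of 16 (87.5%) against 53.97%. Mean B2m was 1251 CPM in the first set and 139.5 CPM in the second. The first set includes 3 MB/HB cells with 7 to 9 endothelial markers and 0 or 1 astrocyte marker. Their B2m was 2605, 3153 and 1503 CPM and their H2-D1 1335, 4229 and 3846 CPM. The shares and means were not taken without these cells. Among the scored genes Ifit3 was present in 14, Ifit1 and Oasl2 (an oligoadenylate synthetase-like protein) in 11 each and Cxcl10 in 4 of the 16. The cells were chosen on expression of the response, so these shares are a description.

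Not all of these cells had the markers of their class. In MouseID-615516 (2 cells) and MouseID-651222 (1 cell) the MB/HB cells with 5 or more members had 7 to 9 of the 9 endothelial markers and 0 or 1 astrocyte marker at 10 CPM. Without cells holding other-type markers the mean MB/HB share fell from 3.22% to 1.25%, and the CBX share was 12.6%. The 2 neuron-like cells with 5 or more members had 12964 and 13591 genes detected, 12 of 12 astrocyte markers and 8 or 9 endothelial markers. The 7 cells of MouseID-614198 and the 4 of MouseID-556485 had 10 to 12 astrocyte markers and 0 endothelial markers.

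The levels of MouseID-614198 were also taken without its 7 strongest cells. These cells were chosen on the scored members, which include Cxcl10, Usp18, Irf7, Isg15 and Ifit3. Part of the fall of those genes thus follows from the choice. B2m, H2-D1 and Psmb9 were not scored. Cxcl10 went from 731.4 to 2.46 CPM, Usp18 from 245.97 to 5.90, Irf7 from 87.2 to 0.332, Isg15 from 100.02 to 1.99 and Psmb9 from 22.4 to 0.0831. B2m went from 457.6 to 277.4, H2-D1 from 280.4 to 197.5 and Ifit3 from 722.5 to 110.4 CPM, each still above every VISp mouse. In MouseID-651221, which had no such cell, these 3 were at 226.8, 142.4 and 117.1 CPM. In the cerebellar mice, then, B2m, H2-D1 and Ifit3 were high in cells with and without the wider response.

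Within VISp single members differed between the classes. No vector gave profiles of both glial classes, so class and vector cannot be told apart in what follows. Lgals3bp was the member most raised in astrocyte-like cells: 32.7 to 582.2 CPM over 19 mice (median 129.1) against 0 to 5.13 (median 0) over 22 mice of oligodendrocyte-like cells, without overlap, 6.63 ± 0.26 (limma, adjusted p = 7.441e-27). Xaf1, an apoptosis factor, went the other way, with 75.96 to 186.4 CPM (median 127.05) in oligodendrocyte-like and 0 to 41.04 CPM (median 3.65) in astrocyte-like mice. These groups did not overlap either, and the difference was -5.31 ± 0.34 (adjusted p = 1.1e-18). The share of all genes without overlap was not counted, and 59.3% of all genes were called between these classes. The lack of overlap is therefore a description of Lgals3bp and Xaf1. Xaf1 reached 10 CPM in 67.1% of the 939 oligodendrocyte-like cells and Lgals3bp in 42.2% of the astrocyte-like cells. In the scored list of 15, 590 of the 939 oligodendrocyte-like cells held exactly 1 member at 10 CPM.

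H2-K1 and H2-D1 changed in opposite directions. H2-K1 was higher in astrocyte-like cells (72.6 to 234.5 CPM, median 113.98, against 12.6 to 77.6, median 41.2; 1.65 ± 0.18, adjusted p = 2.456e-11). H2-D1 was lower in them (20.5 to 111.6 CPM, median 34.6, against 35.8 to 152.4, median 89.7; -1.26 ± 0.16, adjusted p = 3.086e-09). B2m, with which both pair, differed by 0.13 ± 0.13 and was not called (adjusted p = 0.3945). Both calls held under all 53 alternatives run for this comparison.

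The Ifit genes also parted. Ifit3 had a median of 20.2 CPM in astrocyte-like and 0 CPM in oligodendrocyte-like mice (3.85 ± 0.33, adjusted p = 1.619e-14). Ifit2 had a median of 0.167 CPM in the first and 13.4 CPM in the second (-2.57 ± 0.38, adjusted p = 7.196e-08). Irf9, the DNA-binding partner of STAT2, was at 12.1 against 1.36 CPM (medians; 2.55 ± 0.38, adjusted p = 1.149e-07), Tap1 at 5.14 against 0 CPM (2.43 ± 0.31, adjusted p = 3.355e-09) and Rtp4 at 8.64 against 0.0788 CPM (2.28 ± 0.34, adjusted p = 9.973e-08). Gbp3 (2.35 ± 0.32, adjusted p = 1.34e-08) and Ifih1, the cytoplasmic RNA sensor MDA5, were listed at 0 in all 939 oligodendrocyte-like cells. Against the floor of 3 reads over that group, 0.00708 CPM, the astrocyte-like mean of Gbp3, 6.84 CPM, was at least 965-fold higher, and Ifih1 averaged 4.08 CPM in astrocyte-like mice. Gbp3, Ifih1 and Tap1 passed the filter of 1 CPM only through astrocyte-like mice, so their calls give no support for a difference.

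In total 19 of the 33 members tested were called between the classes, 16 higher and 3 lower in astrocyte-like cells, where 59.3% of the 2334 panel genes were called, 38.6% higher and 20.8% lower, and 62.6% had an unadjusted p under 0.05 (21 of the 33 members). The members' share of 57.6% was close to that background. Their median difference was 0.76 against 0.25 over all genes. Quantile normalization moved the median of all genes from 0.25 to -0.03 and the part of called genes that were higher from 65% to 48.5%. It left 18 members called, 14 of them higher, with the calls of Rsad2 and Trim25 lost. The remaining members called higher were Parp9 (1.47), Parp14 (1.46), Nlrc5, the class I transactivator (1.46), Trim25 (1.11), Tapbp (0.96), Gbp2 (0.93), Rsad2, or viperin (0.91), and Irf7 (0.76). Of the 16 higher in the main fit, Gbp3, Ifih1, Tap1, Irf7 and Gbp2 reached 1 CPM in no oligodendrocyte-like mouse. Rsad2 reached it in MouseID-601542 alone (2.66 CPM). These genes entered the test through astrocyte-like mice, in which they were high, so their calls give no support for a difference. Members not called included Ifi27, at 50.7 to 246.3 CPM in the astrocyte-like and 76.1 to 227.6 CPM in the oligodendrocyte-like mice, and Stat2 (0.61 ± 0.32).

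Of the wider list 49 of 84 genes were called between the classes, 46 higher and 3 lower in astrocyte-like cells. Tlr3 (7.15 ± 0.21), Irgm1 (4.37 ± 0.36), Ifitm3 (4.10 ± 0.23), Ifitm2 (3.83 ± 0.22), Eif2ak2, the kinase PKR (3.74 ± 0.25), and Ifit3b (3.61 ± 0.35) led. The 58.3% called was again near the 59.3% of all genes.

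**Figure D5:**
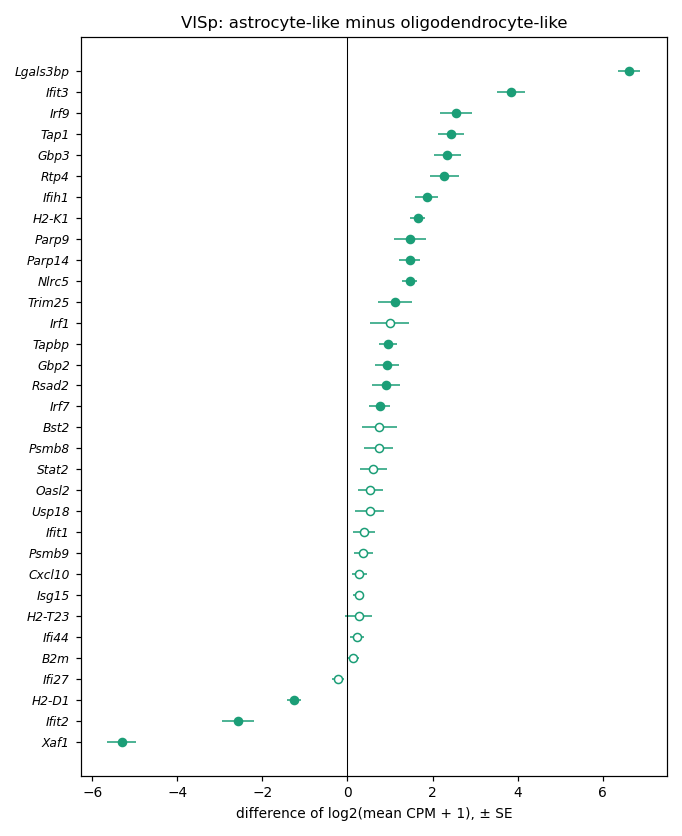
Difference of log2(mean CPM + 1) between VISp astrocyte-like (19 mice) and oligodendrocyte-like cells (22 mice) for the 33 members tested, with bars of 1 SE and filled points for adjusted p under 0.05. Lgals3bp at 6.63 and Xaf1 at -5.31 mark the ends, and 16 filled points lie above 0 and 3 below.

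Neuron-like cells of VISp (84 cells) had another pattern. Responding cells made up 22 of the 84 (26.2%, 17.2 to 36.9), yet only 2 held 5 or more members. Of the 22, 18 came from the 2 MBP_promoter mice, 8 of 21 cells (38.1%) in MouseID-638254 and 10 of 27 (37.04%) in MouseID-651227, so the share of the class is mainly that of these mice. The scored members at 10 CPM or more were mainly Ifit2 (44.05% of the cells), Ifit3 (35.7%), Rtp4 (26.2%) and Ifit1 (16.7%), while Usp18 was at 10 CPM in 0 cells, which allows a share of up to 3.57%. The MBP_promoter mice gave both neuron-like and oligodendrocyte-like cells, so the classes could be set side by side within a mouse. In MouseID-638254 (21 and 29 cells) Ifit2 averaged 66.6 CPM in neuron-like and 0 CPM in oligodendrocyte-like cells, and in MouseID-651227 (27 and 18 cells) 72.1 and 12.4 CPM. B2m averaged 207.04 against 106.3 CPM and 189.03 against 57.4 CPM. Xaf1 was at 0.566 against 186.4 CPM and 0.269 against 127.7 CPM, and H2-K1 at 7.56 against 38.7 CPM and 5.57 against 25.8 CPM. In both mice 10 members were higher and 5 lower in neuron-like cells. The same count over all genes was not made, so these counts describe single members and not the members as a set. With 2 mice no test was made. In the third mouse with enough neuron-like cells, eHGT_374m MouseID-614201, 1 of 13 responded.

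Among the vectors used in VISp the members' levels did not pass a test. In astrocyte-like cells 32 members were tested by a limma F-test and 0 were called, as were 0.0% of the 2102 genes. None of the 32 had an unadjusted p under 0.05, against 5.19% of all genes. In oligodendrocyte-like cells 0 of 16 members were called, with 0.0573% of 1745 genes called, and 1 member, Irf9, had an unadjusted p under 0.05. Few mice per vector limit this comparison. The 2 eHGT_390m mice show the spread within a vector: Usp18 averaged 110.7 and 1.02 CPM, Oasl2 46.3 and 0.0646 CPM, Irf9 80.5 and 5.02 CPM, Lgals3bp 582.2 and 145.4 CPM, and Ifi27 246.3 and 61.4 CPM in MouseID-556485 and MouseID-616740. B2m (97.6 and 69.9 CPM) was within the range of the other VISp mice in both.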

How the data were processed

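SMARTerv4 RNA libraries of 2040 single SYFP2-positive cells from 47 mice were analysed. Per the submitters' processing notes the reads were aligned with STAR to mm10; the counting step, its version and its treatment of strand and shared reads are not given in the sources used here. The deposited table holds CPM, 1 line per cell. Each line summed to 1000000, and 100% of the 9484843 positive values were whole multiples of 1 read within 0.001 reads, from which depth was recovered. For abundant genes the deposited CPM columns were handled as a signal that is never negative, since they sum over cells to more than 1000000. No pair of cells held identical values over the columns used (0 pairs).

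Analyses used 4000 gene columns: 258 from gene and marker lists, with all members, and 3742 drawn at random. The other 28245 were not used. The unit of the random columns was tested on the line sums and read steps alone. The members and lists were chosen with earlier results of these data known. A wider list of 132 interferon and antigen presentation genes, 123 of them in the table, was handled alongside.

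Cells were clustered without the members and the wider list (2000 variable genes, 30 principal components, 15 neighbours, leidenalg 0.10.2 at resolution 1) and named from marker lists. Doublets were not called, and cells with 3 or more markers of other types were left out in an alternative. Profiles of mice with at least 10 cells of a class, as log2(mean CPM + 1), entered limma 3.58.1 under R 4.3.3 (intensity trend, Benjamini-Hochberg adjustment at 0.05), after a filter of 1 CPM in at least 2 mice. The 3 tissues shared 1 fit. Adding 1 CPM before the log makes differences of weakly expressed genes look smaller. The fit was tested on simulated data. Vectors with 2 or more mice entered the F-tests. Named genes are the called members, at most 8 in full per comparison by size, the 12 highest members and at most 6 called genes of the wider list. Ifngr1 and Ifngr2 in MB/HB and Tlr3 in CBX against VISp were named, and H2-K1 and H2-D1 given in full between classes, after their values were seen. Intervals are exact (Clopper-Pearson) at 95%.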

Additional observations from a re-analysis of the deposited data

Results flagged for a closer look

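Among the 4 MB/HB mice, 7 of 33 members had 1 mouse far from the other 3 (Dixon's test at 95%). Where the other 3 mice are at 0, as for Irf7 and Zbp1, this rule flags any value above 0. Its rate of about 1 in 20 groups holds for normal values and does not apply here, so the flags are a description. In MouseID-651222 the mean CPM stood apart for Irf7 (65.7, others 0), Oas1a (13.7, others 0 to 0.632) and Isg15 (13.65, others 0 to 2.30). A single cell held 100% of the Oas1a and Isg15 of that mouse. In MouseID-615516 it stood apart for Tap1 (18.1, others 0 to 2.45), Irf1 (11.9, others 0 to 0.963), Psmb9 (5.45, others 0 to 0.623) and Zbp1 (3.87, others 0). A single cell held 100% of the Zbp1 and 74% of the Irf1. Those 2 mice hold the 3 cells with 7 to 9 endothelial markers. Without them MouseID-651222 had Irf7 at 27.1 CPM and Oas1a and Isg15 at 0. MouseID-615516 then had Tap1 at 15.9, Irf1 at 3.24, Psmb9 at 2.70 and Zbp1 at 0 CPM. The part of these cells in the flags was not tested.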

How the results depend on the processing

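Counts of members called in CBX against VISp (9) were 17 with the mean over cells of log2(CPM + 1) and 5 with a pseudocount of 0.1 CPM, and ran from 2 (without MouseID-614198) to 15 (without MouseID-651221) when 1 mouse was left out. Without MouseID-614198 Isg15 and Cxcl10 turned to -0.28, and over the left-out mice their differences ran from -0.28 to 6.38 and from -0.28 to 9.24. In MB/HB against VISp (6) the count was 3 with the class called in each cell and 3 without cells with other-type markers, and 4 to 9 with 1 mouse left out. In CBX against MB/HB (1) it was 10 with the mean of logs (28.6% of members, when 585 of all 2336 genes were called, in place of 7.79%), 3 with the class called in each cell, 3 without cells with other-type markers, 0 with a pseudocount of 0.1 CPM, and 2 on AB plates only, with the plate prefix as covariate and with summed reads (added after seeing the data). Leaving out 1 mouse gave 1 to 6, with 6 without MouseID-651221 and 2 without each of MouseID-651226, MouseID-614199, MouseID-615516, MouseID-593373 and MouseID-556485. The causes were not tested. Counts printed without a share of all genes called under the same setting are not read against a background. Between the classes the count stayed within 18 to 23 under 12 other alternatives and 19 to 21 under 41 left-out mice, and among vectors it was 0 under all run. The mean share of responding cells in VISp oligodendrocyte-like cells (0.935%) was 3.60% at 1 CPM and 8.69% with 2 or more members, and in CBX (11.8%) 26.3% with 2 or more members and 2.63% to 20.9% with 1 mouse left out. The other shares moved by less than 1 SD. The edgeR test of recovered reads was not run. Depth and cell number limit means that rest on single cells, such as Psmb8 in MouseID-651222, of which 1 cell held 100%.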

Other observations

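The 26 cells of the unnamed cluster, in which most oligodendrocyte markers and most neuron markers were detected, had 3 responding cells (11.5%, exact 95% interval 2.45 to 30.2) and 0 with 5 or more members, which allows a share of up to 11.5%. The 15 neuron-like cells of MB/HB had 0 responding cells (exact 95% interval 0 to 21.8%).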
